A study of Mus musculus with 4 samples.

Results

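The 139 genes described here were bright in club cells isolated from adult mouse lung and far dimmer after 3 weeks in medium with doxycycline. By 2 weeks after the drug was removed, they had regained less than 50% of that log2 difference. They were selected on measured values, by a rule applied to the 23185 named probe sets of the series. The Day0 signal had to reach 6.67, the median over the whole table, to exceed the larger of both culture signals by at least 2.5 log2 units (5.66-fold), and the change after withdrawal had to undo less than 50% of the difference between Day0 and 3W+Dox. These measured conditions were met by 172 genes, 0.742% of those named. Of these, 33 belong to gene families that the rule leaves out, among them cytochromes P450, secretoglobins, claudins and keratins, and 139 were left, which is 0.6% of the named genes.

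Affymetrix arrays measured RNA from 4 populations of mouse cells, 1 array each. Day0 is uncultured club cells of adult lung. The 3W+Dox population, which the labels call Club-iPL, had been cultured for 3 weeks with doxycycline, a drug used to switch on inducible transgenes, and the cells of 3W+Dox+2W-Dox (withdrawn cells in what follows) had spent 2 more weeks without it. The last population, iPS, carries the label Club-iPS, induced pluripotent stem cells of club cell origin by name. The series title speaks of interrupted reprogramming. The labels give the stage as adult, and the sources used here do not name the strain, the transgenes, any pooling of animals or whether the iPS cells are 1 clone. Drug and culture time cannot be told apart, since no cells grown without the drug from the start were analysed here. A single array stands for each population, so differences have no replicate check and carry no p-value. Signals are RMA log2 values, on which a difference of 1 is 2-fold.

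Club cells line the small airways and secrete. They release secretoglobins and other defence proteins into the airway fluid, they carry enzymes that break down inhaled and endogenous compounds, and their apical channels and carriers help set the salt, acid and nutrient content of the fluid layer.

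The Day0 array had all 8 fixed club cell markers at or above 6.67, with a median of 13.09. The same held for all 8 ciliated, all 7 measured alveolar type 2, 5 of 7 alveolar type 1 and all 3 measured neuroendocrine markers, and for 0 of 4 basal markers. Markers of other lung epithelial cells were thus bright at Day0, but 11686 of the 23185 named genes also reached 6.67 there. The mark alone does not show how many such cells were included. Of 7 fibroblast markers, 2 reached 6.67 at Day0 and 7 in each culture, and their median went from 6.18 at Day0 to 12.28 at 3W+Dox and 11.89 in withdrawn cells. The fibroblast range was 4.15 to 8.31 at Day0, 10.53 to 12.84 at 3W+Dox and 10.87 to 12.82 in withdrawn cells. The part of this shift in the lower signals below was not tested. In such bulk RNA, fewer cells of a type and less RNA per cell cannot be told apart. The alveolar type 2 markers had medians of 12.68, 11.42 and 11.43 at Day0, at 3W+Dox and in withdrawn cells. In the same order, the ciliated markers had medians of 8.97, 5.84 and 7.50, and the club markers 13.09, 12.18 and 11.18. Pluripotency markers reached 6.67 on the iPS array in 5 of 6 cases and on no other array (0 of 6 each).

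Over the 139 genes, Day0 signals ran from 7.29 to 13.32 with a median of 10.08. The medians on the other arrays were 6.26 (3W+Dox), 6.63 (withdrawn) and 6.07 (iPS). The difference between Day0 and the larger culture signal ran from 2.504 to 5.78 with a median of 2.98, and 17 genes differed by at least 4 log2 units. Since these values chose the genes, they are a description only. The genes were lower in the cultures, but not all were dim there. In both cultures 55 genes still lay at or above 6.67, and 68 lay below it in both. This mark is the median of all values and not a limit of detection. Below the 25th percentile (5.07) lay 24 of the genes at 3W+Dox and 16 in withdrawn cells.

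**Figure D1:**
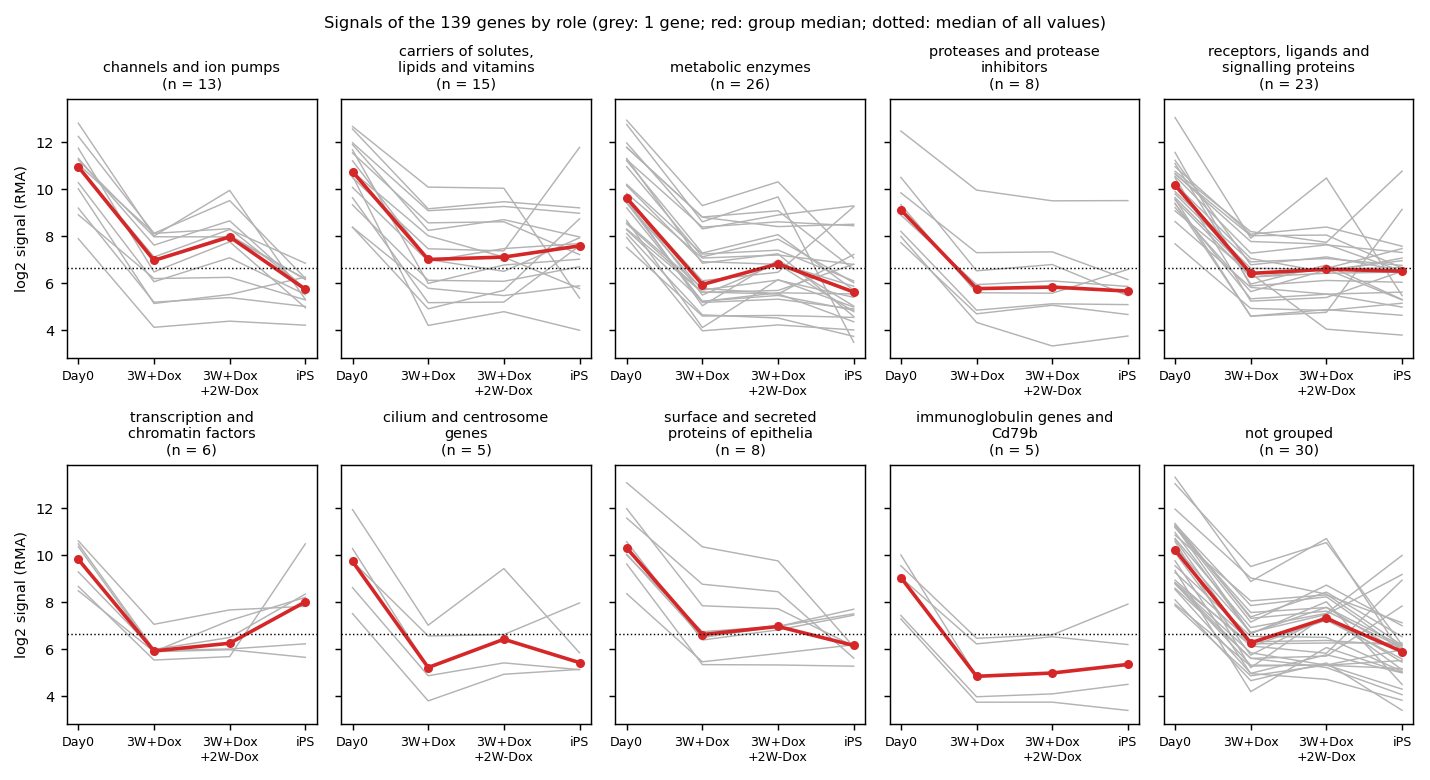
Log2 signals of the 139 genes on the 4 arrays, in 10 panels by role, with a grey line for each gene, a red line for the panel's median and a dotted line at 6.67. The drop from Day0 and the limit on a rise after withdrawal follow from the rule. The iPS values were not used by it and had their highest panel medians for transcription and chromatin factors (8.02) and carriers (7.59).

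Most of these genes differed little between the 3W+Dox and the withdrawn cells. The rule caps a rise after withdrawal, so the changes of the 139 genes at this step are a description only. Drug removal and 2 more weeks of culture cannot be told apart here. For 88 of the 139, the signals of the withdrawn and the 3W+Dox cells differed by less than 0.5 log2 units, and the median gene had undone 6.71% of its difference from Day0. A rise of at least 1 log2 unit was seen for 27 genes and a fall of at least 1 for 2. Among all named genes outside the left-out families, 352 met the Day0 filter and were at least 2.5 log2 units lower at 3W+Dox. The 139 genes made up 39.5% of these, 81 had undone at least 50% of the difference and are called returned genes here, and 132 were neither. The 3W+Dox signals of the 139 genes and of the returned genes had been similarly far from Day0, by medians of 3.52 and 3.35 log2 units.

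**Figure D2:**
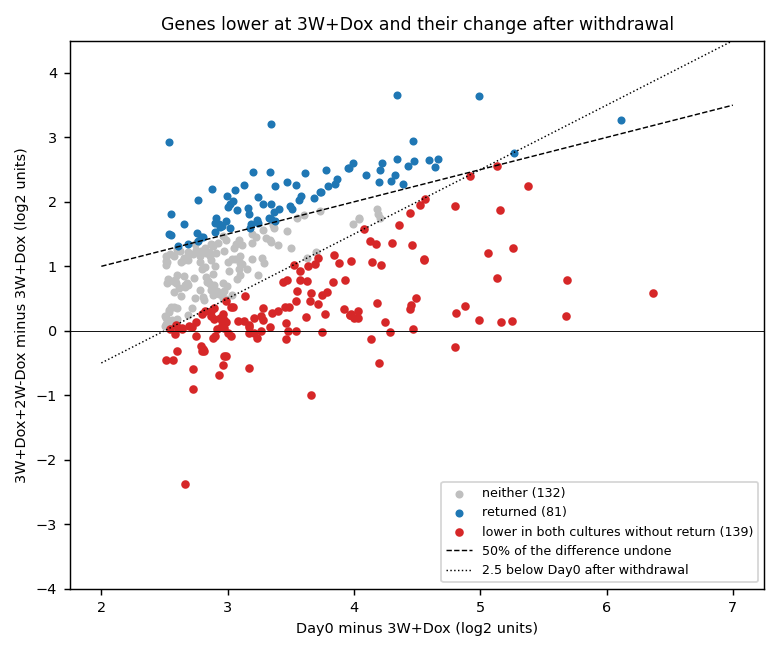
Each point is 1 of the 352 genes that were at least 2.5 log2 units lower at 3W+Dox than at Day0, plotted by that difference (x axis) and by the change after withdrawal (y axis), both in log2 units. The 139 genes (red) lie below the dashed line of 50% undone and below the dotted line of 2.5 log2 units under Day0, and the 81 returned genes (blue) lie on or above the dashed line.

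Values near the limits of the rule show how sharply it cuts. Just inside the limit of 2.5 stood Depp1 at 2.504, Prob1 at 2.51 and Cdhr3 at 2.51. Just outside it stood Slc1a1 at 2.499, Dixdc1 at 2.49 and Hid1 at 2.49. On the limit of return, Cckar (49.9% undone), Cdhr3 (49.0%) and Glb1l2 (44.7%) were inside, while Sec14l3 (52.4%) and Agr3 (53.4%) were outside.

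The genes were sorted into 9 roles by hand, after their names were known, which placed 109 of them. The largest groups were 26 metabolic enzymes, 23 receptors, ligands and signalling proteins, 15 carriers and 13 channels and ion pumps. All values below are given in the order Day0, 3W+Dox, withdrawn and iPS.

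**Figure D3:**
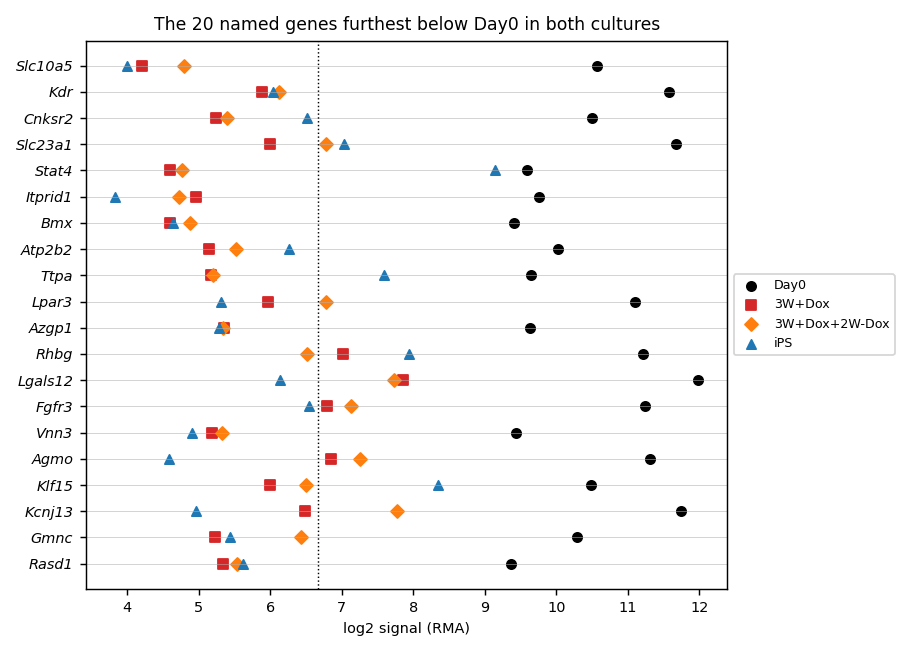
Log2 signals (x axis) on the 4 arrays for the 20 named genes with the largest difference between Day0 and the larger culture signal, from Slc10a5 (5.78) at the top. For every one of them the Day0 point stands alone on the right of both culture points, as the rule requires, while the iPS point of Stat4 lies beside Day0.

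Carriers of solutes, lipids and vitamins were among the genes furthest from Day0. Slc10a5 (Entrez gene 241877), a member of the bile acid carrier family, read 10.57, 4.21, 4.79 and 4.002. Slc23a1, a sodium-coupled transporter of vitamin C, read 11.68, 5.99, 6.78 and 7.02. Its relative Slc23a2, which carries the same vitamin, read 11.98, 9.09, 9.27 and 8.98. The Slc10a5 signal thus lay below the 25th percentile of all values (5.07) in both cultures, while Slc23a2 stayed bright. Ttpa, the transfer protein of vitamin E, read 9.64, 5.18, 5.20 and 7.59, and Slc19a3, a transporter of thiamine, read 9.34, 6.13, 6.09 and 6.71. Rhbg, an ammonia channel of epithelia, read 11.21, 7.01, 6.51 and 7.94. Genes for the handling of 3 vitamins were therefore in the set, and none of the 15 carriers rose by 1 log2 unit after withdrawal. Slc16a11, of the monocarboxylate carrier family, went lower still, at 10.75, 8.02, 7.12 and 5.77. Cd36, a fatty acid receptor also found on alveolar type 2 cells and macrophages, read 12.67, 10.09, 10.05 and 5.37. Slc4a5, a sodium bicarbonate cotransporter, read 12.57, 9.17, 9.47 and 9.21, and Slc46a3, a lysosomal carrier, read 11.55, 8.57, 8.62 and 7.22. Sec14l2 and Sec14l4, lipid-binding proteins of which the first binds vitamin E, read 10.08, 6.94, 7.48 and 7.69 and 11.91, 8.25, 8.71 and 7.97. These 4 stayed above 6.67 on every array, so their drop was one of degree. Of 333 measured solute carriers outside the left-out families, 9 met the rule and 18 were at least 4-fold lower at 3W+Dox than at Day0, against 2.88% of all named genes for the latter and 0.6% for the rule. The median difference over those 333 carriers was -0.15, and over all named genes -0.09.

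Channels and ion pumps, among them those for sodium, potassium, protons and calcium, made up 13 genes. Of these, 7 rose by at least 1 log2 unit after withdrawal while staying at least 2.5 below Day0. Scnn1b (Entrez gene 20277), the beta subunit of the epithelial sodium channel that takes up salt from the airway fluid, read 12.81, 8.01, 9.96 and 5.31. Scnn1g, the gamma subunit, read 12.25, 8.13, 9.52 and 6.21. The alpha subunit gene Scnn1a, which did not meet the rule, read 12.52, 11.87, 11.09 and 6.04. The subunits of 1 channel thus parted in culture, with beta and gamma 4.80 and 4.12 log2 units below Day0 at 3W+Dox and alpha close to its Day0 signal. Prss8, a membrane protease that activates this channel, read 12.48, 9.97, 9.51 and 9.52, and it was still far above the median on every array. Among potassium channels, Kcnj13 read 11.75, 6.48, 7.77 and 4.96, Kcnj15 read 10.95, 6.97, 8.05 and 6.16, and Kcnk2, a channel opened by stretch and lipids, read 11.25, 7.98, 7.98 and 6.18. Both inward rectifiers rose in part after withdrawal, and Kcnk2 did not move. Of 94 measured potassium channel genes by name, 31 reached 6.67 at Day0, 8 were at least 4-fold lower at 3W+Dox and 4 met the rule, the fourth being Kcnrg, a regulator of potassium channels. Over all named genes 2.88% were as much lower and 0.6% met the rule. Atp6v1b1 and Atp6v1c2, tissue-restricted subunits of the proton pump, read 10.28, 6.07, 7.09 and 5.52 and 11.32, 7.62, 8.66 and 5.75. Atp2b2, a calcium pump of the plasma membrane, read 10.02, 5.14, 5.52 and 6.26, and Trpm6, a magnesium channel, read 11.07, 8.12, 8.33 and 5.78. Clic6, of the chloride intracellular channel family, read 10.96, 7.12, 8.29 and 6.85, Gjb6, the gap junction protein of the connexin family, read 9.20, 5.20, 5.39 and 5.01, and Cnga2, a channel gated by cyclic nucleotides, read 7.90, 4.13, 4.39 and 4.22. All 13 channels and pumps were at least 4-fold lower in iPS cells than at Day0.

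Metabolic enzymes were the largest group, with 26 genes. Pon1 (Entrez gene 18979), a paraoxonase that splits lactones and esters, read 12.76, 8.62, 9.68 and 3.49, and its difference between iPS and Day0 (-9.27) was the largest of the 139 genes. Agmo, which cleaves ether lipids, read 11.31, 6.85, 7.26 and 4.59. Vnn1 and Vnn3, enzymes of the vanin family that release vitamin B5 from pantetheine, read 11.21, 7.29, 8.07 and 5.71 and 9.43, 5.18, 5.32 and 4.91. In the cultures Pon1, Agmo and Vnn1 still lay above 6.67 and Vnn3 below it, and in iPS cells all of them lay below it. Mat1a and Cbs act in the methionine pathway, the first making the methyl donor S-adenosylmethionine and the second drawing homocysteine toward cysteine. Mat1a read 10.97, 7.13, 7.88 and 6.03, and Cbs read 9.59, 6.11, 6.47 and 9.26. The genes shared the drop in culture and differed in iPS cells, where Cbs was within 2-fold of Day0. Amines and amino acids were represented by Maob, a monoamine oxidase (11.78, 8.82, 9.09 and 6.59), Hnmt, which methylates histamine (10.15, 6.92, 6.81 and 4.79), and Gpt, an alanine aminotransferase (8.27, 5.23, 5.59 and 5.55). Acyl-CoA synthetases were represented by Acss2, which makes acetyl-CoA from acetate (11.78, 8.81, 8.41 and 8.51), Acsf2 (11.97, 8.31, 8.91 and 9.30) and Acsm1 (9.57, 5.04, 6.99 and 5.03). Acsm1 rose by 1.95 log2 units after withdrawal and Acss2 fell slightly. Mettl7a1, a methyltransferase of lipid droplets, read 12.94, 9.31, 10.32 and 7.08, the brightest enzyme at Day0. Lysine breakdown was represented by Aass, its first enzyme (8.53, 5.63, 5.55 and 7.23), and Hykk, a hydroxylysine kinase (11.26, 8.39, 8.62 and 8.45). Iyd, which recovers iodide from iodotyrosines, read 9.21, 5.24, 5.48 and 4.85, Entpd3, an ectonucleotidase, read 10.21, 7.24, 7.41 and 6.10, and Eno4, an enolase of sperm and cilia, read 9.67, 5.50, 6.85 and 5.87. Hsd3b2, of the steroid dehydrogenase family, read 8.12, 4.66, 4.52 and 3.74, and Sptssb, a subunit of serine palmitoyltransferase, read 8.58, 5.79, 5.56 and 4.36. Of 47 measured genes of fatty acid oxidation and ketone metabolism, 8 were at least 4-fold lower at 3W+Dox and 1, Acsm1, met the rule, with a median difference of -0.52. Of 46 measured other oxidation and reduction enzymes, 5 were at least 4-fold lower and 2, Maob and Pon1, met the rule. The shares over all named genes were 2.88% and 0.6%.

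Receptors and ligands of several signalling systems were in the set. Kdr (Entrez gene 16542), the VEGF receptor best known from blood vessels, read 11.57, 5.89, 6.12 and 6.04, the second largest difference among the 139 genes, a 43.7-fold gap to the larger culture signal. Other endothelial genes did not share this course. Of 20 endothelial genes measured, 3 reached 6.67 at Day0, namely Kdr, Esam (7.78) and Car4 (6.72), and Kdr alone was at least 4-fold lower at 3W+Dox. Pecam1 read 5.50, 5.56, 5.53 and 9.22, Cdh5 read 6.33, 5.88, 5.83 and 6.80, and Vwf read 6.40, 5.87, 6.13 and 6.87. In the other direction, 2 of the 20 were at least 4-fold higher at 3W+Dox. Flt1 went from 5.62 at Day0 to 8.84 at 3W+Dox, and Eng from 6.05 to 10.46. The endothelial list's median was 6.03 at Day0 and 6.08 at 3W+Dox. Bmx, a Tec family kinase also made by endothelium, read 9.41, 4.60, 4.88 and 4.64.

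Growth factor and lipid receptors followed the same pattern. Fgfr3, a receptor for fibroblast growth factors, read 11.23, 6.79, 7.12 and 6.55, Erbb4, a receptor for neuregulins, read 7.68, 4.93, 4.84 and 5.15, and Lpar3, a receptor for lysophosphatidic acid, read 11.10, 5.97, 6.78 and 5.31. None of them regained more than 15.8% of its difference from Day0. Cckar, the cholecystokinin A receptor, read 13.05, 7.92, 10.48 and 5.48 and had the largest rise after withdrawal, 2.56 log2 units. It was thus the member nearest to being classed as returned. Npr1, the receptor of atrial natriuretic peptide, read 9.22, 5.64, 6.57 and 6.96, Lepr, the leptin receptor, read 8.63, 5.83, 5.54 and 4.99, and Plxnb1, a receptor of semaphorins, read 10.96, 8.09, 8.39 and 7.58. Shh, the secreted ligand of the hedgehog pathway, read 10.18, 6.26, 6.60 and 5.29. Receptors of immune signals were Il6ra, the interleukin-6 receptor (10.66, 8.03, 8.05 and 6.65), and Tlr5, the sensor of bacterial flagellin (10.66, 7.78, 7.66 and 6.52). Both stayed above 6.67 in the cultures. Il1f9, an interleukin-1 family cytokine now called interleukin-36 gamma, read 9.08, 6.42, 4.05 and 3.79 and had the largest further change downward after withdrawal (-2.37). Stat4, a transcription factor activated by cytokines, read 9.59, 4.60, 4.76 and 9.14. It was low in both cultures and close to Day0 in iPS cells. Cnksr2, a scaffold of Ras signalling, read 10.49, 5.24, 5.40 and 6.51, the third largest difference of the set. Npw, the precursor of neuropeptide W, read 10.56, 7.28, 7.63 and 7.31, Traf1, an adaptor of tumour necrosis factor receptors, read 9.90, 6.91, 7.05 and 6.76, Pak6, a kinase, read 9.80, 6.64, 6.60 and 6.67, and Rhov, a small GTPase, read 9.65, 6.44, 6.63 and 7.48. Pim3, a serine/threonine kinase, read 10.77, 8.20, 7.74 and 10.77, and Nrarp, a feedback inhibitor of Notch signalling, read 10.23, 7.06, 6.47 and 7.07.

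Transcription and chromatin factors were few. Klf15 read 10.48, 5.99, 6.50 and 8.35, and Zbtb16, also called PLZF, read 9.29, 5.96, 6.01 and 6.23. Both genes are known to respond to glucocorticoid hormones, as does Rasd1, a Ras-like GTPase, which read 9.37, 5.34, 5.54 and 5.62. A list of 33 measured glucocorticoid-responsive genes, which held Zbtb16 but neither Klf15 nor Rasd1, had a median difference of -0.24 at 3W+Dox. Zbtb16 was the 1 of the 33 at least 4-fold lower. Over all named genes the share was 2.88%, so nothing is read from that count. Well-known genes of that list differed in direction. Fkbp5 read 6.02, 7.23, 7.33 and 9.54, while Tsc22d3 read 9.76, 8.45, 8.42 and 6.57 and Per1 read 11.46, 9.98, 9.80 and 9.60. Mycl, of the Myc family, read 10.36, 5.90, 7.22 and 8.21, Tox3 read 10.61, 7.06, 7.67 and 7.83, and Esrrg, an orphan nuclear receptor, read 8.49, 5.89, 5.98 and 5.65. Esrrg was the 1 of 46 lung epithelial transcription factors that met the rule. That list differed by a median of -0.81 at 3W+Dox and -0.83 in withdrawn cells, with 4 genes at least 4-fold lower, against 2.88% of all named genes. Cecr2, a bromodomain protein of a chromatin remodelling complex, read 8.67, 5.54, 5.69 and 10.49 and was highest in iPS cells.

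Ciliated cell genes were lower at 3W+Dox almost throughout, and part of them returned. The list of ciliated cell genes had 40 measured, of which 34 lay at least 4-fold below Day0 at 3W+Dox, 17 of them returned after withdrawal and 3 met the rule. Genes of the left-out families are not counted as returned. Among those on the list, Rsph4a (11.17, 6.18, 8.95 and 5.73) and Sntn (11.12, 5.44, 8.79 and 3.89) also rose after withdrawal. Across all named genes, 2.88% were 4-fold lower, 0.349% returned and 0.6% met the rule, so each of these counts lies above the background, that of the rule included. The 3 were Gmnc, Cdhr3 and Stk33. Gmnc (Entrez gene 239789), which starts the multiciliated cell program, read 10.28, 5.22, 6.42 and 5.43 and regained 23.8% of its difference. Foxj1, which acts later in that program, read 11.19, 7.99, 10.45 and 8.38 and was a returned gene. Cdhr3, a cadherin of ciliated cells, read 11.94, 7.02, 9.43 and 5.85, and Stk33, a kinase, read 8.62, 4.87, 5.42 and 5.13. From the cilium and centrosome group, Cep70, a centrosomal protein, read 9.74, 6.56, 6.62 and 7.97, and Efcab10 read 7.52, 3.80, 4.93 and 5.14. Of 34 measured club cell genes, 5 met the rule (Chad, Iyd, Pon1, Scnn1b and Scnn1g), 1 met its measured conditions in a left-out family and 4 returned, against the same background shares. The 4 do not include Scgb3a1 (13.28, 10.45, 12.70 and 6.37) and Scgb3a2 (10.21, 6.25, 8.81 and 3.86). Both belong to a left-out family and rose after withdrawal. The club list as a whole differed by a median of -1.32 at 3W+Dox and -1.39 in withdrawn cells.

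Surface and secreted proteins of epithelia included Upk1a and Upk2, the uroplakins of apical membrane plaques, which read 10.58, 6.39, 6.82 and 7.45 and 10.04, 6.50, 6.97 and 7.70. Chad, a leucine-rich matrix protein, read 13.09, 10.36, 9.76 and 6.11, and Azgp1, a secreted zinc-binding glycoprotein, read 9.63, 5.35, 5.33 and 5.28. Sfta2, a surfactant-associated protein, read 11.58, 8.77, 8.45 and 5.62, and Lgals12, a galectin, read 11.98, 7.85, 7.72 and 6.13. Crb1, of the Crumbs apical polarity family, read 8.36, 5.47, 5.82 and 6.19, and Lypd6, an anchored surface protein, read 10.01, 6.75, 6.97 and 7.51. All 8 genes of this group were at least 4-fold lower in iPS cells than at Day0. Among proteases, Enpep and Dpp4, peptidases of the outer cell surface, read 10.51, 6.53, 6.80 and 5.47 and 9.85, 7.30, 7.34 and 6.16, and Tmprss13, a membrane serine protease, read 9.35, 5.60, 5.58 and 6.59. Serpind1, the inhibitor heparin cofactor, read 7.73, 4.70, 5.07 and 4.67, Itih4, an inter-alpha-trypsin inhibitor chain, read 8.90, 5.95, 6.10 and 5.87, and Klk1b22, a kallikrein, read 7.99, 4.33, 3.33 and 3.76. Of the 8 proteases and inhibitors, 1 reached 6.67 in iPS cells, which was Prss8.

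Immunoglobulin genes were among those bright at Day0 and dim in the cultures. The set held 4 immunoglobulin segments, which read 7.29 to 10.01 at Day0, 3.75 to 6.23 at 3W+Dox, 3.75 to 6.53 in withdrawn cells and 3.40 to 6.20 in iPS cells. Cd79b, a chain of the B cell receptor, read 9.55, 6.47, 6.61 and 7.92. Its partner Cd79a read 4.84, 4.69, 4.68 and 5.79, and Ms4a1, which encodes CD20, read 3.66, 3.66, 3.76 and 3.54, so these defining B cell markers were dim on the Day0 array as on the others. Of the leukocyte list as a whole, 9 of 24 were at least 4-fold higher at 3W+Dox and 0 lower by as much, against 4.31% of all named genes higher and 2.88% lower. Among fibroblast genes, 14 of 19 were at least 4-fold higher.

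Of the 30 genes without a role, 10 rose by at least 1 log2 unit after withdrawal. Elapor1, an endosome and lysosome protein, read 13.32, 8.88, 10.71 and 5.78, and Depp1, a gene induced by FOXO factors, read 13.04, 9.52, 10.54 and 6.19. Both were partly regained in withdrawn cells and low in iPS cells. Itprid1 read 9.76, 4.96, 4.72 and 3.83, without any regain. Palmd, or palmdelphin, read 11.96, 9.04, 8.34 and 6.16, and Gpr155, a lysosomal cholesterol sensor, read 11.35, 7.32, 7.62 and 6.07. Fam13a, a gene linked to chronic lung disease in human studies, read 11.23, 6.68, 7.79 and 6.14, and Rab6b, a GTPase of Golgi traffic, read 10.35, 6.72, 7.48 and 9.18. Prob1 read 11.24, 7.15, 8.73 and 7.001, Cabcoco1 read 10.59, 5.22, 7.45 and 5.13 and Olfml2a read 11.26, 7.37, 8.43 and 6.53. These 3 rose by over 1 log2 unit after withdrawal, while Palmd went lower.

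The remaining lists held 0 or 1 of the 139 genes each, beside a share of 0.6% over all named genes, at which lists of these sizes would hold less than 1, so nothing is read from these counts. Neuroendocrine genes (15 measured) held Resp18, alveolar type 2 genes (27) Cd36, alveolar type 1 genes (20) Scnn1g, ABC transporters (48) Abca4, serpins (55) Serpind1, transmembrane serine proteases (17) Tmprss13 and glycosyltransferases (54) Galnt5. None were in the lists of circadian clock (22), retinoid (32) or prostanoid and leukotriene genes (38), nor among cathepsins (23), adhesion receptors (25), TMC and anoctamin proteins (18), annexins (12), kelch proteins (46), carbonic anhydrases (16) or aquaporins (11).

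Some of the genes are neighbours on the chromosome. In RefSeq gene order (GRCm38.p6), 130 of the 139 genes are protein-coding, and 5 pairs of them lie next to each other among protein-coding genes. These were Vnn1 with Vnn3, Scnn1b with Scnn1g, Acsf2 with Chad, Sema4f with M1ap, and Cnga2 with Prrg3. Only the vanin and sodium channel pairs are of 1 gene family each. How many such pairs a set of this size would hold was not computed, so nothing is read from their number.

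The iPS array was not used to choose the genes, although its comparison with Day0 shares the Day0 array with it. Of the 139 genes, 124 (89.2%) were at least 4-fold lower in iPS cells than at Day0, against 11.7% of the 11686 named genes that reached 6.67 at Day0. The median difference was -3.80, beside 0.003 over all named genes. On the iPS array alone, 45 of the 139 genes (32.4%) lay at or above 6.67, against 87.1% of the genes bright at Day0 and 51.1% of all named genes. Among the 81 returned genes, 14 (17.3%) did so and 74 (91.4%) were at least 4-fold below Day0. With 1 array each, none of these differences was tested.

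**Figure D4:**
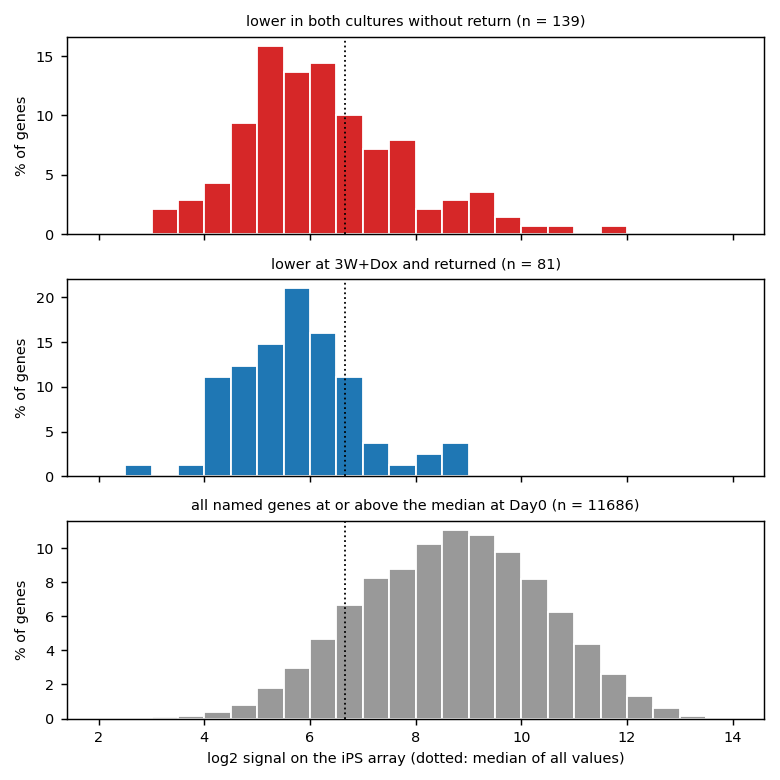
Distribution of log2 signals on the iPS array, as a percent of genes in bins of 0.5 log2 units, for the 139 genes (top), the 81 returned genes (middle) and the 11686 named genes that reached the median at Day0 (bottom), with a dotted line at 6.67. Of the 139 genes, 45 lie at or right of the line, and of the genes bright at Day0 10184 do.

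A minority of the genes was high in iPS cells. Signals there were within 2-fold of Day0 for 7 genes and at least 2-fold higher for 2, and 10 genes were at least 4-fold above both cultures (7.19% of the 139, against 2.85% of the genes bright at Day0 and 1 of 81 returned genes). The rule chose the 139 genes for low signals in both cultures, and returned genes were chosen for a higher signal in withdrawn cells. The 139 genes thus reach this mark more easily, and no excess is read from these shares. The 2 genes at least 2-fold above Day0 were Cecr2, higher by 1.82, and Slc38a4, a neutral amino acid transporter of imprinted expression, which read 10.50, 7.47, 7.38 and 11.78. Slc27a2, an acyl-CoA synthetase of very long chain fatty acids, read 8.38, 4.91, 5.70 and 8.74. M1ap, a gene needed in meiosis, read 8.94, 6.14, 5.83 and 8.94, and Cyfip2, of the WAVE actin regulatory complex, read 10.72, 6.93, 7.53 and 9.99. Cbs, Stat4, Pim3, Ttpa and Crybg2 complete the 10 genes. Of the 10, Ttpa was still over 4-fold below Day0 in iPS cells (-2.05), and the other genes were within 2-fold of Day0 or above it. At the other end, 15 genes were at least 4-fold below both cultures in iPS cells, among them Pon1, Cd36 and Chad. Of the carriers, 11 of 15 reached 6.67 in iPS cells, and of the channels and pumps 1 of 13, against 45 of the 139 genes (32.4%).

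**Figure D5:**
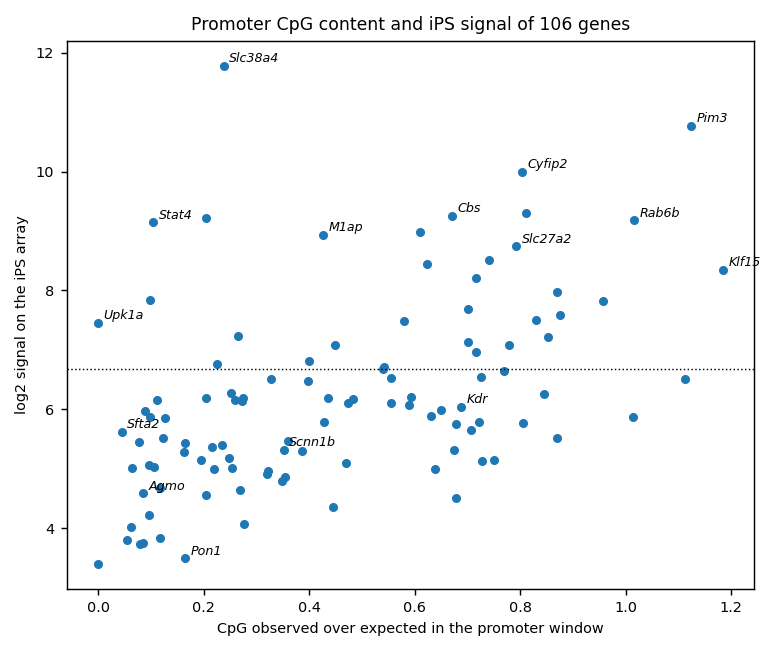
Ratio of observed to expected CpG in the promoter window (x axis) and log2 signal on the iPS array (y axis) for the 106 genes with a promoter in the RefSeq table, 1 point a gene, with a dotted line at 6.67. Genes with little CpG lie mostly below the line, and most of those with a ratio of at least 0.75 lie above it.

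Promoter sequence was compared as a feature that the rule did not use. The RefSeq table (GRCm38.p6) held a window of 250 bases before to 50 after the start for 106 of the 139 genes, and the first listed start was used. The ratio of observed to expected CpG, which is low where CpG has been worn away by methylation over evolution and high in CpG islands, had a median of 0.413 for these genes. It was 0.469 for 68 returned genes, 0.769 for 9280 genes bright at Day0 and 0.585 for 17452 named genes. A ratio of at least 0.6 was found for 38 of the 106 (35.8%), against 73.1% of the genes bright at Day0. Within the set, iPS signals differed along this ratio. Below 0.25, 6 of 35 genes (17.1%) reached 6.67 in iPS cells, and at 0.75 or more 12 of 19 (63.2%) did. For the genes bright at Day0 the same bins gave 59.3% and 94.2%. The bin at 0.75 or more holds under 20 genes. The correlation of the ratio with the iPS signal over the 106 genes was 0.48 (Pearson) and 0.51 (Spearman), across genes that share 1 array and are not independent, and the Spearman value with the 3W+Dox signal was 0.28. The same correlation with the iPS signal was 0.35 and 0.32 over the 9280 genes bright at Day0, and 0.23 and 0.24 over the 68 returned genes, so a relation of this sign is not limited to the set.

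The contrast can be read in the 150 bases before the start of 4 genes, given 5′ to 3′ on the gene's strand with each CpG in capitals. Agmo (chr12:37241489-37241638, plus strand) and Sfta2 (chr17:35649558-35649707, plus strand) were low in iPS cells, and Cyfip2 (chr11:46312359-46312508, minus strand) and Pim3 (chr15:88862044-88862193, plus strand) stayed near Day0 there. They were picked after their values were seen, to show both ends of the range.
Agmo: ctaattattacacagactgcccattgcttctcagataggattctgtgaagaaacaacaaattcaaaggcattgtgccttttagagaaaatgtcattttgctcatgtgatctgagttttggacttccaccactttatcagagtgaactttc
Sfta2: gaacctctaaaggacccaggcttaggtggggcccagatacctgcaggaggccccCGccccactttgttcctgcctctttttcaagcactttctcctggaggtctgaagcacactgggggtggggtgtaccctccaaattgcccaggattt
Cyfip2: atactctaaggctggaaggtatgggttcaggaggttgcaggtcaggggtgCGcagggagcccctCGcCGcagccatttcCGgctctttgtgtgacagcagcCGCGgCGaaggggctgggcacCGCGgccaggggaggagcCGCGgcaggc
Pim3: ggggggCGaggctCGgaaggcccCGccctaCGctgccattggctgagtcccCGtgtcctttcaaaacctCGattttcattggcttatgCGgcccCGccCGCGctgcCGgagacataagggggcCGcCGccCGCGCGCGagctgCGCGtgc
The stretches hold 0, 1, 11 and 19 CpG in that order. The ratios over the whole windows were 0.085, 0.045, 0.803 and 1.12. Other genes of the set went against this contrast. Stat4 (ratio 0.104) was within 2-fold of Day0 in iPS cells, and Slc38a4 (0.238) was above it. Cnksr2 (1.11) and Slc46a3 (0.853) differed from Day0 by -3.98 and -4.33 there.

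Short motifs were searched on both strands of the windows. GTTGCCA, a core recognised by RFX factors, which act in ciliated cells, was found in 8 of 106 windows (7.55%), in 17 of 68 of the returned genes (25%), in 4.44% of the genes bright at Day0 and in 4.46% of all 27025 promoters of the table. Over the 100 bases before the start, the shares were 3.77% and 17.6% for the same gene sets, beside 1.85% of all promoters. The 8 genes were Cdhr3, Efcab10, Enpep, Il6ra, Itih4, Plxnb1, Stmnd1 and Tlcd4, and Cdhr3 and Efcab10 are among the 5 genes given a cilium or centrosome role. TATAAA, the core of the TATA box, was found in 15 of 106 windows (14.2%), beside 14.2% of all promoters and 6.95% of the genes bright at Day0. GGGCGG, the GC box, was found in 40.6%, beside 65.6% of the genes bright at Day0. CCAAT was found in 40.6%, beside 38.5%, CAAGTG, a core bound by NKX2 factors, in 15.1%, beside 10.7%, and CACGTG, the E-box, in 8.49%, beside 10.4%. AGAACA, the hexamer of steroid receptors, was found in 11.3%, beside 11.7%. TGTTTAC, a forkhead core, was found in 1 of 106 windows (0.943%) and in 6 of 68 of the returned genes (8.82%), beside 2.59%. Matches are a description of letters and not of binding.

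The RFX core is shown in 150 bases before the start of Cdhr3 (chr12:33092876-33093025, minus strand), which was nearest to returning among the ciliated cell genes of the set, and of Stmnd1 (chr13:46273571-46273720, plus strand), which read 8.54, 4.97, 5.76 and 5.00. The capitals mark the match, here on the opposite strand.
Cdhr3: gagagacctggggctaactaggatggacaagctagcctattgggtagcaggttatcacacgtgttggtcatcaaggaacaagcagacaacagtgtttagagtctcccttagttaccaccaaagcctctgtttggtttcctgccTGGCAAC
Stmnd1: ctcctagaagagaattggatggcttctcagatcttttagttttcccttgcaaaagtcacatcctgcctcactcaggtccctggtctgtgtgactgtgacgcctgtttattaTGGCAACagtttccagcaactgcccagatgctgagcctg
The match lies at -7 to -1 from the start of Cdhr3 and at -39 to -33 from that of Stmnd1. No statement about the factor follows from either.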

How the data were processed

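Log2 signals of 4 arrays, 1 for each population, were used as deposited. The authors made these log2 values with RMA, in the affy package and R 3.0.2, per the submitters' processing notes. RMA corrects background, equalises quantiles and summarises probes by median polish. Quantile normalization gives the arrays near-equal distributions, so a shift of all genes would not be seen. The table holds 25206 probe sets, each of 1 Entrez gene. GEO's platform annotation named 23185, each symbol once, and 2021 unnamed ones were left out. The sources used here do not state the probe set annotation or build.

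Groups follow the sample titles. Differences of log2 signals, counts and medians were computed in Python 3.11.15 with pandas 2.3.3, and 95% Wilson intervals with scipy 1.17.1. The selection rule was tested on simulated data. A 4-fold call needs the brighter array at or above 6.67. The 139 genes, the 28 lists, the roles and the motifs were chosen with earlier results of these data known. Any of the 139 genes could be named. Values were required for the 12 with the largest difference from Day0, the 6 highest in iPS cells, the 6 with the largest difference between iPS and Day0, 3 on each side of the 2.5 limit and the 4 brightest at Day0 of each role. Clone-named genes and immunoglobulin segments are not named. Other genes named with values were chosen after these were seen.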

Additional observations from a re-analysis of the deposited data

How the results depend on the processing

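Of 59 values recomputed under other settings, 47 stayed within 1.5 times the reported count or median, or within the 95% Wilson interval of the reported share, 12 moved and 0 reversed. A required difference of 2 log2 units in place of 2.5 gave 287 genes (239 at least 4-fold lower in iPS cells than at Day0, 105 at or above the median there, 49.6% of the genes lost at 3W+Dox), and 3 log2 units gave 68 (62, 21 and 33.8%). These counts move because the setting itself admits more or fewer genes. A return limit of 25% made the share 32.95%, against 39.5%. With the 75th percentile as the limit, 12 genes in place of 45 were bright in iPS cells. Over the 100 bases before the start, TATAAA was found in 7.55% and GTTGCCA in 3.77% of windows. The shorter window for GTTGCCA, and the use of other listed starts, were chosen after seeing the data. Arrays centred on bright genes gave 118 genes, all among the 139. No paired analysis was possible because each population has 1 array.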

Other observations

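Among the 2021 probe sets without a gene name, 11 met the measured conditions of the rule.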
